A study of Mus musculus with 40 samples.

Results

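Dusp1, Dusp4, Dusp5, Dusp6, Spry2, Spry4, Spred1, Etv4, Etv5 and Fosl1 are 10 genes that cells transcribe in response to the ERK kinases, and most of their products act back on the ERK pathway. The rule that defines them goes by symbol and uses no measured value, though the set was proposed with earlier results of these data known, and all 10 were found among the 23480 genes of both deposited tables. The study profiled 4T1, a mouse mammary carcinoma cell line, by RNA sequencing after infection with 1 of 10 short hairpin RNAs (shRNAs), which are transcribed stem-loops that the cell processes into small RNAs that lower pairing transcripts. It asked how far hairpins of the TRC collection disturb other genes than hairpins that were picked by the shERWOOD algorithm and built into a microRNA backbone.

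In the Slpi table, named for the gene the hairpins were aimed at, the lines were 66708 and the shERWOOD lines Slpi1U1, Slpi1U2, Slpi2 and Slpi4. In the Mgp table they were 88943 and the shERWOOD lines Mgp1, Mgp1U1, Mgp1U3 and Mgp2. Lines 66708 and 88943 were taken as the TRC hairpins from their catalogue-style numbers and were selected with 1 µg/ml puromycin, while the other 8 were selected with 500 µg/ml hygromycin. Hairpin source, vector and drug therefore cannot be told apart in any comparison of a TRC line with shERWOOD lines. All lines were infected at a multiplicity of 0.3 and kept under selection for an average of 10 days, the labels do not say whether the libraries of a hairpin came from separate infections, and no untransduced line was analysed here. Each line had 2 libraries, of 12.2 M to 28.5 M reads (Slpi table) or 12.1 M to 23.3 M reads (Mgp table). Libraries of the same line differed beyond sampling noise, most in Mgp2 (chi-square per degree of freedom 12.1, against 1.57 in the closest pair). Reads were found in every library for all 7 epithelial markers searched (Krt7, Krt8, Krt18, Krt19, Epcam, Cdh1 and Cldn4), while all 4 leukocyte and all 3 endothelial markers stayed under 1 CPM (reads of a gene per 1 M reads counted in the library). Of 4 fibroblast markers, Pdgfrb, Dcn and Lum stayed under 1 CPM, and Pdgfra reached 57.3 CPM. Slpi stood at 151 CPM in 66708 and at 48.2 to 60.9 CPM in the 4 Slpi-directed shERWOOD lines. In lines not aimed at it, Slpi stood at 140 CPM in 88943 and at 453 to 586 CPM in the 4 Mgp-directed shERWOOD lines, so the libraries labelled 66708 were below the latter and not below 88943. Mgp stood at 15.8 CPM in 88943 and at 1.15 to 8.32 CPM in the 4 Mgp-directed shERWOOD lines, against 105 CPM in 66708 and 15.4 to 29.9 CPM in the 4 Slpi-directed shERWOOD lines.

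ERK is the last kinase of a relay that runs from receptor tyrosine kinases through Ras, Raf and MEK, and it drives proliferation and survival in many carcinomas. Active ERK switches on a set of genes that limit it again. The dual-specificity phosphatases (Dusp genes) remove phosphates from ERK and related kinases, Sprouty and Spred proteins act between receptor and Raf, and the Ets factors Etv4 and Etv5 and the AP-1 subunit Fosl1 carry the signal into transcription. The transcript levels of such genes are widely used as a readout of ERK output, and they do not measure kinase activity itself.

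Sequences ahead of the transcription start were read from RefSeq (GRCm38.p6) for 6 of the 10 genes, in 7 windows since Etv5 has 2 annotated starts. Dusp1, Dusp5 and Dusp6 are shown, a choice made by result. As ratios of read levels, Dusp1 and Dusp5 were, with Fosl1, furthest from the shERWOOD lines in 88943, though Dusp5 rests on few reads. Dusp6 was the gene that differed most among lines with hairpins against the same target. In the lines that follow, the first 200 of the 250 bases searched are printed 5′ to 3′ on the strand of the gene, and capitals mark the cyclic AMP response element (CRE, TGACGTCA) and its core TGACG on either strand.
Dusp1 (chr17:26508523-26508722, minus strand): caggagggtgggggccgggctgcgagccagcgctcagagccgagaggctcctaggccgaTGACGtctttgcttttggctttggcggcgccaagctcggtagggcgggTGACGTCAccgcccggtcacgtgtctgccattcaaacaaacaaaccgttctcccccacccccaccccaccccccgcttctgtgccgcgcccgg
Dusp5 (chr19:53528895-53529094, plus strand): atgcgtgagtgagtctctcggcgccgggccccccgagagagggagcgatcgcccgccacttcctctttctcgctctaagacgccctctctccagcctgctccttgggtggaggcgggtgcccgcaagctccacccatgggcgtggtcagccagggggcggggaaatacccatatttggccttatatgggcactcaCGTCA
Dusp6 (chr10:99262981-99263180, plus strand): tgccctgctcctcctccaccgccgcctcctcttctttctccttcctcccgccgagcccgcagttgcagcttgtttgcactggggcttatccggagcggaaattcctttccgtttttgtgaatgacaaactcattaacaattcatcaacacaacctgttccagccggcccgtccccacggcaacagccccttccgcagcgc
The Dusp1 window held a full CRE whose first base lies at position -143 from the start, and a separate core TGACG at -191. The full CRE holds the core on both strands. The Dusp5 window held the core on the other strand (CGTCA) at -55, and the Dusp6 window held no match to any motif searched. The windows of Spred1, Spry2 and Etv5, which are not printed, held no match either. Besides CRE and its core, the AP-1 motif TGANTCA and the Ets core CCGGAA were searched on both strands, and neither had a match in any of the 7 windows. Among all 32851 windows of this length, 1.55% held the full CRE, 17.8% its core, 6.75% the AP-1 motif and 12.0% the Ets core. A match is a description of these letters and not a binding site.

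On the GRCm38 annotation (GENCODE M21), Dusp1 (ENSMUSG00000024190) lies on chromosome 17, 26505590 to 26562128, minus strand. Dusp4 (ENSMUSG00000031530) lies on chromosome 8, 34807297 to 34819894, plus strand, Dusp5 (ENSMUSG00000034765) on chromosome 19, 53529109 to 53542431, plus strand, and Dusp6 (ENSMUSG00000019960) on chromosome 10, 99263231 to 99267489, plus strand. Spry2 (ENSMUSG00000022114) lies on chromosome 14, 105891947 to 105896819, minus strand, Spry4 (ENSMUSG00000024427) on chromosome 18, 38586247 to 38601415, minus strand, and Spred1 (ENSMUSG00000027351) on chromosome 2, 117121374 to 117182279, plus strand. Etv4 (ENSMUSG00000017724) lies on chromosome 11, 101769742 to 101785371, minus strand, Etv5 (ENSMUSG00000013089) on chromosome 16, 22381309 to 22439719, minus strand, and Fosl1 (ENSMUSG00000024912) on chromosome 19, 5447547 to 5455946, plus strand. The tables give 1 value per gene, so no transcript isoform is told apart. The strand setting of the counting is not given in the sources used here, and 57.2% of the exon bases of Fosl1 are shared with Ccdc85b on the opposite strand, 22.1% of those of Dusp5 with the antisense model AC137853.2 and 0.332% of those of Dusp1 with Ergic1. Without strand, reads from such overlaps cannot be assigned to one gene, so Fosl1 and Dusp5 values carry that uncertainty.

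All 10 genes were transcribed in all 20 libraries, at very different levels. Compared per length, as CPM per kilobase of exon and as the median over the 20 libraries, Dusp6, the cytoplasmic phosphatase that is selective for ERK, was highest at 35.3. Spred1, which brings the Ras inhibitor neurofibromin to the membrane, stood at 20.5, Fosl1 at 19.1, the nuclear phosphatase Dusp4 at 18.2 and Spry2 at 18.1. Etv5 followed at 11.8, Etv4 at 7.21, Dusp1 at 5.91 and Spry4 at 4.11. The nuclear ERK phosphatase Dusp5 was lowest at 0.803 and rested on 15 to 74 reads per library, so its values are the least precise of the 10.

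Across the 10 lines, on the scale of log2(CPM + 1), the range of line means was widest for Fosl1 (0.97) and narrowest for Etv4 (0.27). These levels are relative to each library's total reads, set the lines of both tables side by side and are a description with no test. Fosl1 fell from 45.8 CPM ± 0.569 in Mgp1U1 to 22.9 ± 1.93 in 88943 (SD, n = 2 libraries), and 88943 was the single line set apart from its neighbour in the order, Slpi2 at 33.7 ± 7.37. Dusp1 ran from 25.5 ± 3.82 CPM in Mgp2 to 14.2 ± 0.838 in 88943, with all 4 Mgp-directed shERWOOD lines at the top (23.4 or more) and 88943 at the bottom. Dusp5 ran from 2.75 ± 0.365 CPM in Mgp1U1 to 1.30 ± 0.529 in 88943, and none of its 9 neighbouring pairs differed by more than their SDs.

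For 4 genes the highest line was 66708. Spry4 stood at 25.9 ± 0.0292 CPM there (SD, n = 2), apart from Mgp1 at 21.2 ± 0.544 and down to 14.8 ± 0.756 in Slpi1U2. Etv5 stood at 59.0 ± 1.03 CPM in 66708, apart from Slpi4 at 54.3 ± 1.38, and lowest in Mgp2 at 39.0 ± 1.62. Etv4 spanned only 24.5 ± 1.18 CPM in 66708 to 20.1 ± 1.08 in Mgp1. Dusp6 stood at 148 ± 0.723 CPM in 66708, which Slpi4 matched within its spread (148 ± 3.27), and at 92.6 ± 2.82 in Mgp1U3.

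The other 3 genes had another line on top. Dusp4 ran from 56.1 ± 0.321 CPM in Mgp1 to 41.9 ± 1.54 in Slpi2 (SD, n = 2), with all 4 Mgp-directed shERWOOD lines, 66708 and 88943 between 51.0 and 56.1 CPM and all 4 Slpi-directed shERWOOD lines between 41.9 and 45.1. Spry2 ran from 44.3 ± 0.301 CPM in Mgp1 to 32.9 ± 3.08 in Slpi1U1, and no neighbouring pair in its order differed by more than the SDs. Spred1 ran from 163 ± 5.42 CPM in Slpi4, apart from 88943 at 146 ± 3.45, to 124 ± 5.94 in Mgp1U3, and its other neighbours overlapped.

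**Figure D1:**
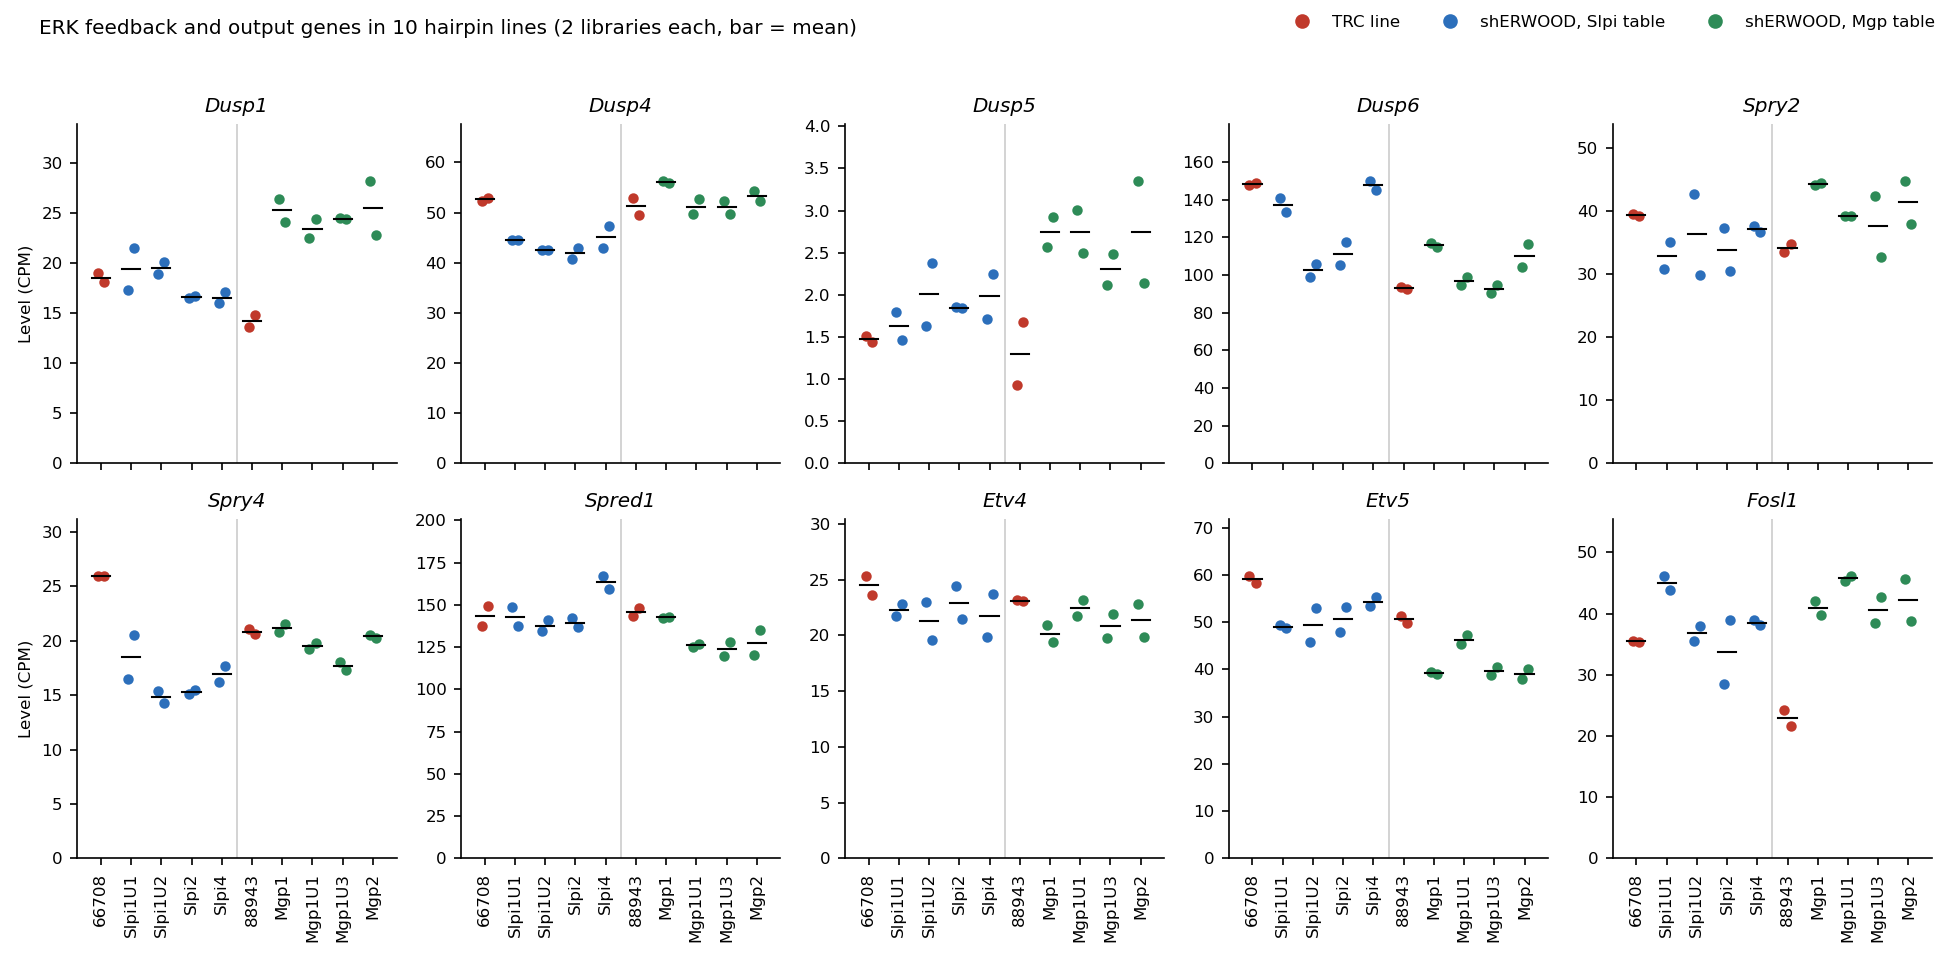
Level of each of the 10 genes in CPM (vertical axis, from 0) in the 10 hairpin lines (horizontal axis), with 1 point per library and a bar at the mean of 2, and a grey line between the lines of the Slpi table and those of the Mgp table. Line 88943 is lowest for Dusp1, Dusp5 and Fosl1, and 66708 is highest for Spry4, Etv4, Etv5 and Dusp6.

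The first comparison set 66708 against the 4 shERWOOD lines against Slpi. Of the 10 genes, 6 were higher in 66708 (Dusp4, Dusp6, Spry2, Spry4, Etv4 and Etv5), none was lower and 4 did not pass the test. Calls were made with limma at an adjusted p under 0.05 over all 11639 genes tested, of which 53.1% were called, 28.6% as higher and 24.5% as lower. The median difference of the 10 genes was 0.15 on the deposited scale, against 0.01 over all genes tested. This scale is like log2 for abundant genes and compresses weak ones, so that a doubling from 1000 to 2000 reads is a difference of 0.770 and one from 100 to 200 reads a difference of 0.358. The levels below are therefore given in scaled reads, the reads of a library after division by the authors' size factor, and folds are ratios of these. Summed epithelial marker levels also differed, 2267 to 2314 CPM in 66708 and 2015 to 2162 CPM in the 8 shERWOOD libraries, with 4 of the 7 called higher and 2 lower, and their part in any result here was not tested. In bulk RNA, fewer cells with a transcript and less transcript per cell cannot be told apart.

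Among the phosphatases, Dusp4 had 916 and 920 scaled reads in the libraries of 66708. In the 8 shERWOOD libraries it had 668 to 783 (median 712), so the groups did not overlap. The ratio was 1.29 and the difference 0.25 ± 0.04 (SE; limma, adjusted p = 3.58e-05), and it passed under all 18 alternatives.

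Dusp6 had 2579 and 2583 scaled reads in 66708 and 1594 to 2487 (median 2064) in the shERWOOD libraries. Both libraries of 66708 lay above the other 8, with those of Slpi4 next at 2487 and 2406, and overlapped with them by CPM. The ratio was 1.26 and the difference 0.29 ± 0.04 (SE; limma, adjusted p = 1.90e-05). With the mean of each hairpin as 1 sample the adjusted p was 0.130, and the shERWOOD lines differed among themselves in this gene, as described below.

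Dusp1, which acts on ERK, JNK and p38 in the nucleus, had 332 and 314 scaled reads in 66708 against 265 to 352 (median 281), with overlapping groups. Its difference was 0.07 (95% interval -0.02 to 0.16; limma, adjusted p = 0.197). Dusp5 had 26.4 and 25.0 against 24.1 to 38.9 (median 29.7), a difference of -0.04 (95% interval -0.12 to 0.04; limma, adjusted p = 0.359). Neither phosphatase passed, and single libraries overlapped in both. In scaled reads, the mean of 66708 lay above all 4 shERWOOD line means for Dusp1 (323 against 274 to 317) and below all 4 for Dusp5 (25.7 against 26.6 to 32.9). By CPM, Dusp1 stood at 18.5 in 66708, below Slpi1U2 at 19.5 and Slpi1U1 at 19.4. Dusp5 stayed below all 4 by CPM (1.47 against 1.64 to 2.01). The share of all genes with a TRC mean outside the shERWOOD line means was not computed.

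Among the inhibitors near the receptor, Spry4 showed the largest difference of the 10 genes in the Slpi table. It had 453 and 452 scaled reads in 66708 and 233 to 336 (median 262) in the shERWOOD libraries, 1.68-fold higher. The difference was 0.39 ± 0.04 (SE; limma, adjusted p = 1.28e-06) and passed under all 18 alternatives.

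Spry2, a paralog with the same inhibitory role, had 690 and 683 scaled reads in 66708 against 487 to 689 (median 592). The lower library of 66708 lay below the highest shERWOOD library, the first of Slpi1U2, so the groups overlapped. Its difference of 0.17 ± 0.06 (SE; limma, adjusted p = 0.0333) was lost under 8 of 18 alternatives, with adjusted p up to 0.158, among them without either library of 66708 (0.158 and 0.124) and without the second library of Slpi2 (0.0684).

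Spred1 had 2406 and 2598 scaled reads in 66708 against 2172 to 2772 (median 2316), and its groups overlapped. The difference was 0.06 (95% interval -0.02 to 0.14; limma, adjusted p = 0.226), and it was -0.02 on the scale of log2(CPM + 1).

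Of the transcription factors, Etv5 had 1045 and 1014 scaled reads in 66708, above the shERWOOD range of 740 to 916 (median 833). The ratio was 1.23 and the difference 0.21 ± 0.04 (SE; limma, adjusted p = 5.65e-04), passing under all 18 alternatives. Etv4, its closest relative here, had 443 and 411 against 319 to 400 (median 363), also without overlap in scaled reads but with overlap by CPM. Its difference of 0.13 ± 0.04 (SE; limma, adjusted p = 0.0215) was lost under 5 alternatives, and without the first library of 66708 the adjusted p was 0.210.

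Fosl1, known as Fra-1, did not differ by the test. It had 622 and 616 scaled reads in 66708, inside the shERWOOD range of 467 to 745 (median 638). The difference was -0.01 (95% interval -0.12 to 0.10; limma, adjusted p = 0.865), and it was 0.02 without the second library of Slpi2, which left the lowest of the 8 as the value of that line.

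Both libraries of 66708 lay above the other 8 for 5 of the 10 genes (Dusp4, Dusp6, Spry4, Etv4 and Etv5), where 25.4% of all genes tested did so, and below for none, where 21.1% did so. By CPM, in which no size factor enters, 3 of these 5 (Dusp4, Spry4 and Etv5) lay above. The share of all genes tested that lay above by CPM was not computed, so this count sets no gene apart.

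The second comparison set 88943 against the 4 shERWOOD lines against Mgp. Here 6 of the 10 genes were lower in the TRC line (Dusp1, Dusp4, Dusp5, Dusp6, Spry2 and Fosl1), Etv5 was higher, and Spry4, Spred1 and Etv4 did not pass. The background was high: 67.6% of the 11595 genes tested were called, 36.0% as lower and 31.6% as higher, so a call alone sets no gene apart. The median difference of the 10 genes was -0.16, against -0.01 over all genes tested. It was -0.098 after quantile normalization, against -0.006 over all genes tested. On log2(CPM + 1) it was also -0.098, but against 0.11 over all genes tested. Fosl1, Dusp1 and Dusp5 were 1.91-fold to 2.23-fold below the shERWOOD mean, and the other called genes differed by 1.12-fold to 1.31-fold. Summed epithelial marker levels were 2609 to 2617 CPM in 88943 and 1540 to 1728 CPM in the shERWOOD libraries, with all 7 markers called higher in 88943, and their part in these results was not tested.

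Fosl1 had 397 and 351 scaled reads in the libraries of 88943 and 686 to 824 (median 758) in the 8 shERWOOD libraries. The groups lay far apart, 2.03-fold, with a difference of -0.58 ± 0.04 (SE; limma, adjusted p = 1.27e-09), and the call held under all 18 alternatives. Ccdc85b, whose exons overlap those of Fosl1, was also lower, with a difference of -0.30 (limma, adjusted p = 1.98e-06), and it was lower in 66708 too (-0.18, adjusted p = 0.00137, not called with hairpin means as samples), where Fosl1 did not pass.

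Dusp1 had 222 and 240 scaled reads in 88943 against 403 to 505 (median 438). No shERWOOD library came near the TRC libraries, and the level was 1.91-fold lower, a difference of -0.44 ± 0.04 (SE; limma, adjusted p = 3.90e-08). Dusp5 had 15.1 and 27.2 against 37.9 to 60.1 (median 45.2). It was 2.23-fold lower, with a difference of -0.20 ± 0.04 (SE; limma, adjusted p = 2.94e-04), and its 2 TRC libraries stood further from each other than the nearer one stood from the shERWOOD range. The calls of both phosphatases held under every alternative that tested them, 18 for Dusp1 and 17 for Dusp5, which the stricter minimum level left out.

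Dusp6 had 1525 and 1508 scaled reads in 88943, below the shERWOOD range of 1647 to 2069 (median 1815). The level was 1.22-fold lower, with a difference of -0.22 ± 0.04 (SE; limma, adjusted p = 2.05e-05). With hairpin means as samples the adjusted p was 0.0633, and by CPM the groups overlapped.

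Dusp4 had 865 and 805 scaled reads in 88943 against 895 to 998 (median 944), a small gap. The level was 1.13-fold lower, with a difference of -0.12 ± 0.03 (SE; limma, adjusted p = 0.00456). The call was lost under 4 of 18 alternatives, with adjusted p of 0.0691 after quantile normalization, 0.432 on log2(CPM + 1), 0.127 without the second library of 88943 and 0.134 with hairpin means as samples.

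Spry2 had 546 and 564 scaled reads in 88943 and 591 to 802 (median 737) in the shERWOOD libraries. The lowest of these, the second of Mgp1U3, lay close to the TRC libraries, and by CPM the groups overlapped. The level was 1.31-fold lower and the difference -0.23 ± 0.05 (SE; limma, adjusted p = 4.53e-04), which passed under all 18 alternatives.

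Spry4, which was highest in the other TRC line, had 345 and 335 scaled reads in 88943 against 312 to 382 (median 357), with overlap. Its difference was -0.02 (95% interval -0.09 to 0.04; limma, adjusted p = 0.509) and 0.08 on log2(CPM + 1). Spred1 had 2339 and 2406 against 2151 to 2530 (median 2290), also with overlap, and a difference of 0.03 (95% interval -0.05 to 0.10; limma, adjusted p = 0.558). Spred1 was called higher after quantile normalization (0.14, adjusted p = 0.00282) and on log2(CPM + 1) (0.16, adjusted p = 0.00411), so its result depends on the scaling.

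The Ets factors did not follow the phosphatases. Etv5 had 838 and 811 scaled reads in 88943 against 679 to 843 (median 708), and the 2 libraries of Mgp1U1 overlapped with it. The ratio was 1.12 and the difference 0.11 ± 0.03 (SE; limma, adjusted p = 0.00646), lost without the first library of 88943 (0.0916) and with hairpin means as samples (0.249). Etv4 had 378 and 374 against 343 to 414 (median 381), inside the shERWOOD range, with a difference of -0.01 (95% interval -0.08 to 0.07; limma, adjusted p = 0.910) that was 0.12 on log2(CPM + 1).

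Both libraries of 88943 lay below the other 8 for 6 of the 10 genes, where 30.8% of all genes tested did so, and above for none, where 27.1% did so. By CPM, Dusp1, Dusp5 and Fosl1 lay below and Spred1 and Etv5 above. The shares of all genes tested that did so by CPM were not computed, so these CPM counts set no gene apart. Scaling on CPM moved the median of all genes tested by 0.12 in the Mgp table and by -0.08 in the Slpi table, and it took the share of all calls that were higher in the TRC line from 46.8% to 64.4% and from 53.9% to 35.2%. Under the 4 scalings run (the deposited values, equal library medians, quantile normalization and log2(CPM + 1)), Spry4, Dusp4, Dusp6 and Etv5 kept their direction and their call in 66708. In 88943, Fosl1, Dusp1, Dusp5, Dusp6, Spry2 and Etv5 did so. How many of all genes tested kept both under all 4 scalings was not computed, so these lists set no gene apart.

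**Figure D2:**
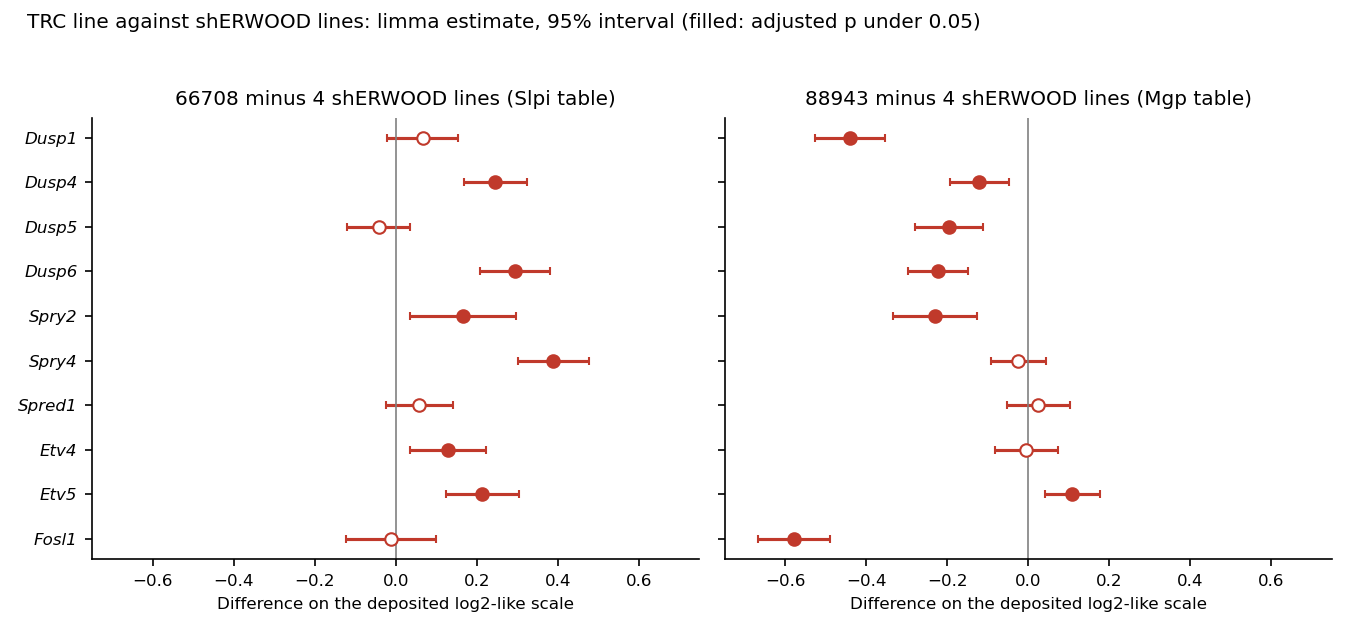
Difference of the TRC line from the mean of 4 shERWOOD lines on the deposited log2-like scale (horizontal axis) for each gene, with 95% intervals and filled points for an adjusted p under 0.05 in limma. In the Slpi panel 6 points are filled, all to the right of 0, and in the Mgp panel 6 are filled to the left and 1 to the right; Spry2, Etv4 and Dusp6 (Slpi) and Dusp4, Dusp6 and Etv5 (Mgp) lost their call under at least 1 other setting.

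**Figure D3:**
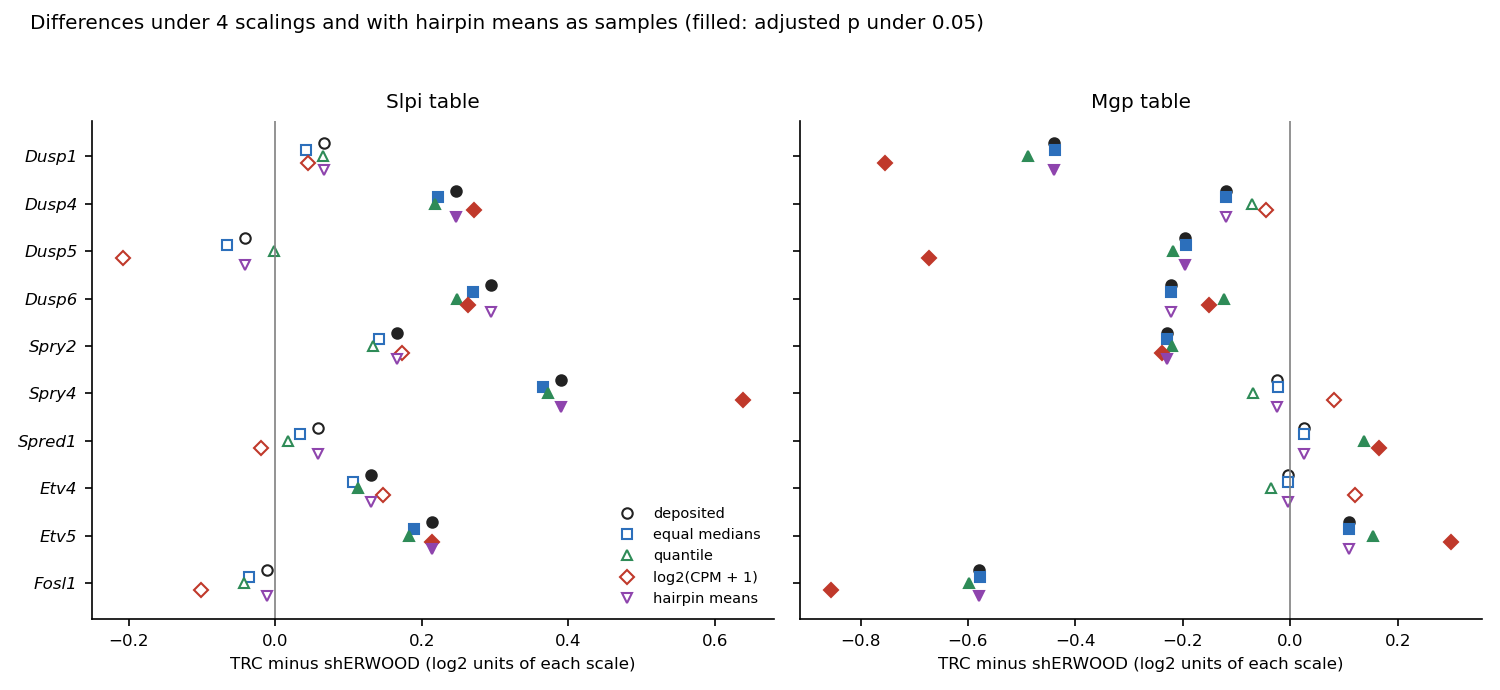
The same differences (horizontal axis, log2 units of each scale) under 4 scalings and with hairpin means as samples, filled where the adjusted p was under 0.05. Symbols of Spry4 and Dusp4 in the Slpi table and of Fosl1 and Dusp1 in the Mgp table are all filled and on 1 side of 0, while those of Spry4 and Etv4 in the Mgp table lie on both sides of 0 and those of Spred1 there are filled under quantile normalization and log2(CPM + 1) only.

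The tables share no library and were normalized separately, so no test was made between them, and the values can only be set side by side. Dusp4 was 1.29-fold higher in 66708 and 1.13-fold lower in 88943, Dusp6 1.26-fold higher and 1.22-fold lower, and Spry2 1.20-fold higher and 1.31-fold lower. Etv5 was the single gene of the 10 that was called higher in both, by 1.23-fold and 1.12-fold. Fosl1, Dusp1 and Dusp5 were called in 88943 alone, and Spry4 and Etv4 in 66708 alone, and whether these effects differ between the TRC lines was not tested.

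The spread among shERWOOD hairpins aimed at the same gene is described next. In the Slpi table, Dusp6 (F = 33.2; limma, adjusted p = 9.44e-05) and Spred1 (F = 9.06, adjusted p = 0.0222) differed over the 4 shERWOOD lines, 2 of the 10 genes, where 6.92% of all genes tested were called. Dusp6 had 1594 and 1730 scaled reads in Slpi1U2 and 1727 and 1944 in Slpi2, but 2274 and 2185 in Slpi1U1 and 2487 and 2406 in Slpi4. The first pair of lines was thus low and the second pair high, with no overlap. Dusp6 was called in 4 of the 6 pairs of lines, most clearly in Slpi1U2 minus Slpi4 (-0.46 ± 0.05, SE; limma, adjusted p = 1.16e-04), Slpi2 minus Slpi4 (-0.35, 9.73e-04) and Slpi1U1 minus Slpi1U2 (0.35, 0.00240). On the deposited scale the mean of 66708 was 11.57, and those of the shERWOOD lines ran from 11.05 in Slpi1U2 to 11.51 in Slpi4. A gap between 2 lines and a difference from a mean of 4 lines are unlike measures, so their sizes were not compared.

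Spred1 had 2772 and 2641 scaled reads in Slpi4 and 2172 to 2402 in the other 6 shERWOOD libraries, so Slpi4 stood alone. It was called in Slpi1U2 minus Slpi4 (-0.23 ± 0.05, SE; limma, adjusted p = 0.0103) and Slpi2 minus Slpi4 (-0.20, 0.0337). The F call of Spred1 was lost without either library of Slpi4 (adjusted p = 0.219 and 0.0876) and without single libraries of Slpi1U2 (0.0529) and Slpi2 (0.0564 and 0.0601). Fosl1 was called in Slpi1U1 minus Slpi2 (0.26, adjusted p = 0.0395), where 1 library of Slpi2 was low at 467 scaled reads and the other at 645. Its F test was not called with all libraries and was called without the second of Slpi2 (adjusted p = 0.00597), which left the low one.

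In the Mgp table, Dusp6 (F = 12.5; limma, adjusted p = 0.00296) and Etv5 (F = 7.14, adjusted p = 0.0178) differed over the shERWOOD lines, where 24.9% of all genes tested were called. Dusp6 had 2069 and 2038 scaled reads in Mgp1 and 1866 and 2064 in Mgp2, against 1705 and 1763 in Mgp1U1 and 1647 and 1706 in Mgp1U3. It was called in Mgp1 minus Mgp1U3 (0.23 ± 0.04, SE; limma, adjusted p = 0.00472), Mgp2 minus Mgp1U3 (0.18, 0.00915) and Mgp1 minus Mgp1U1 (0.19, 0.0149). On the deposited scale the mean of 88943 was 10.99, and those of the shERWOOD lines ran from 11.10 in Mgp1U3 to 11.33 in Mgp1.

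Etv5 had 816 and 843 scaled reads in Mgp1U1 and 679 to 731 in the other 6 shERWOOD libraries. It was called in Mgp1 minus Mgp1U1 (-0.16 ± 0.04, SE; limma, adjusted p = 0.0251) and Mgp1U1 minus Mgp2 (0.16, 0.0231). Its F call was lost without either library of Mgp1U1 (adjusted p = 0.0786 and 0.162) and without the second of Mgp1 (0.0512). Dusp6 was called by F in both tables, and those calls held under all 17 alternatives in each. Spred1 was not called by F in the Mgp table with all libraries on the deposited scale, and was called there on log2(CPM + 1) (adjusted p = 0.0482), with a replicate block (0.0392) and without either library of Mgp2 (0.0142 and 0.00305). Over the 6 pairs of each table, 7 of 60 tests of the 10 genes passed in the Slpi table and 5 of 60 in the Mgp table. In the Slpi table the shares of all genes tested that were called were 0.730% for Slpi1U1 minus Slpi1U2 (1 of the 10 genes called), 4.04% for Slpi1U1 minus Slpi2 (2), 3.46% for Slpi2 minus Slpi4 (2) and 5.82% for Slpi1U2 minus Slpi4 (2), and 2.33% for Slpi1U1 minus Slpi4 and 1.37% for Slpi1U2 minus Slpi2, where none of the 10 was called. In the Mgp table they were 6.87% for Mgp1 minus Mgp1U1 (2), 6.16% for Mgp1 minus Mgp1U3 (1), 6.66% for Mgp1U1 minus Mgp2 (1) and 21.2% for Mgp2 minus Mgp1U3 (1), and 9.36% for Mgp1 minus Mgp2 and 6.95% for Mgp1U1 minus Mgp1U3, where none of the 10 was called. Dusp4, Dusp5, Dusp1, Spry2, Spry4 and Etv4 were called in no pair of either table.

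**Figure D4:**
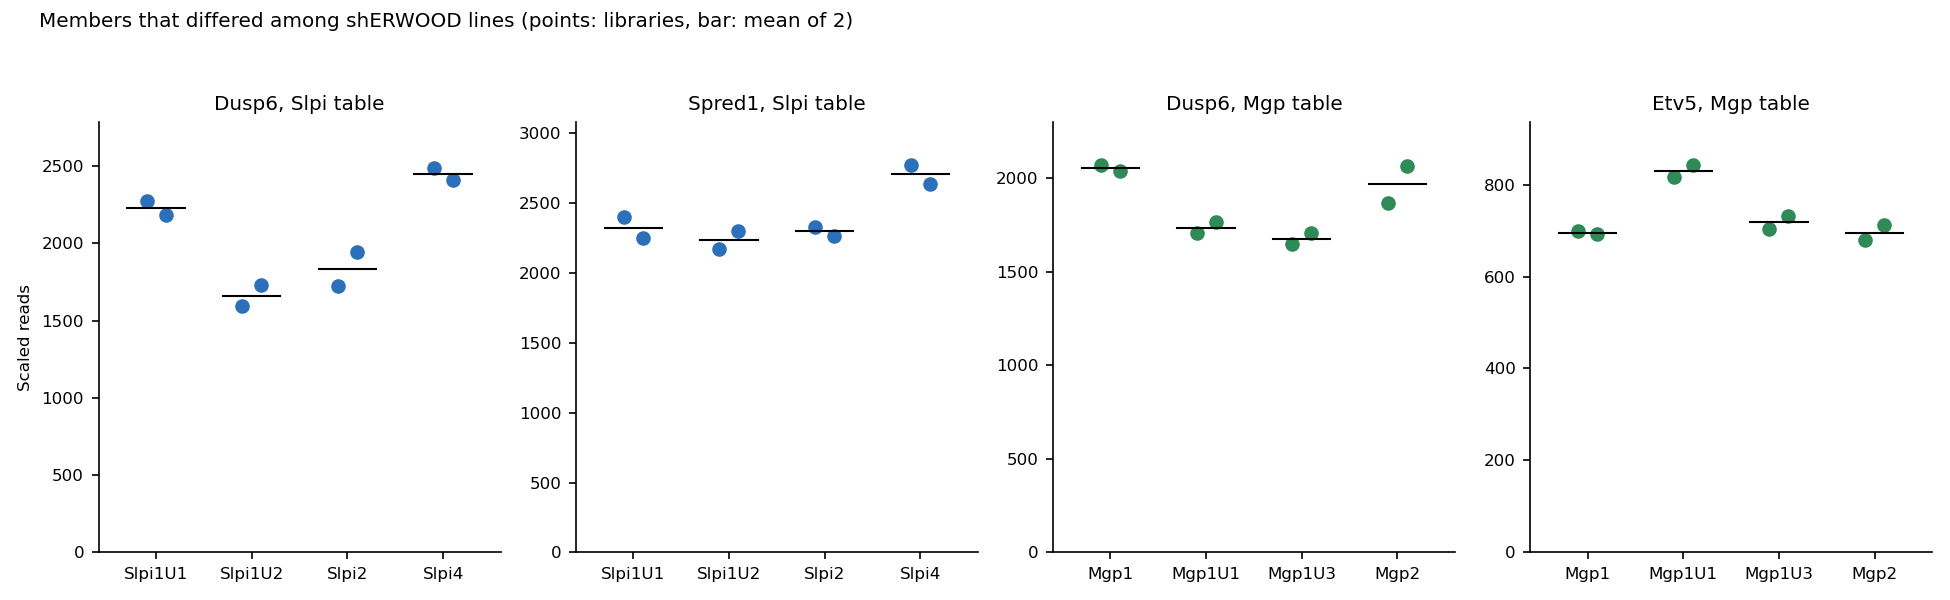
Scaled reads (vertical axis, from 0, within each table) of the genes called by F among the 4 shERWOOD lines, with 1 point per library and a bar at the mean of 2. Dusp6 splits into Slpi1U1 and Slpi4 above Slpi1U2 and Slpi2, and into Mgp1 and Mgp2 above Mgp1U1 and Mgp1U3, Spred1 is highest in Slpi4, and Etv5 is highest in Mgp1U1.

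The 10 genes did not share 1 pattern over the lines. On log2(CPM + 1), Pearson correlations over the 10 line means were 0.87 for Dusp1 with Dusp5, 0.81 for Dusp4 with Spry4, 0.80 for Etv4 with Etv5, 0.77 for Dusp4 with Spry2 and 0.76 for Dusp1 with Fosl1. The correlation of Dusp1 with Etv5 was -0.80, and that of Dusp5 with Etv5 -0.76. Dusp6 was most like Spred1, at 0.67. These are descriptions over 10 lines, which differ in depth and include 2 TRC lines, in levels relative to each library's total, and have no test. Among the 11508 genes tested in both tables, those most like the mean standardized level of the 10 genes were 1700123O20Rik (r = 0.94), Arf3 (0.93), Ccnd1 (0.92), Sdhaf2 (0.91) and Notum (0.91). For Fosl1, which had the widest range, they were Tubb4b (0.97), Klhl23 (0.96) and Sap30bp (0.96).

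Other genes of the pathway, on 6 lists, were read from the same fits. In 66708, 8 of 10 tested Ets factors were higher, none was lower and 2 did not pass, with a median difference of 0.14 against 0.01 over all genes. Ets2 was 1.55-fold higher (0.47 ± 0.03, SE; limma, adjusted p = 1.81e-08), Etv6 1.51-fold, Etv1 1.30-fold and Erf, a repressor that ERK inactivates, 1.25-fold. The count of higher Ets factors was 4 on log2(CPM + 1), 5 after quantile normalization and 3 with hairpin means as samples, where Etv1 was not called (adjusted p = 0.0538), and none was lower in these. Of all 11639 genes tested, 3333 were higher on the deposited scale and 2197 on log2(CPM + 1). After quantile normalization 2827 were higher, and with hairpin means 2002. Of 6 tested growth factor ligands, 2 were higher, Tgfa by 1.75-fold (0.69 ± 0.04, SE; limma, adjusted p = 1.98e-09) and Btc by 1.59-fold, both ligands of the EGF receptor, and none was lower. Of 10 receptor genes 4 were higher and 2 lower, with the fibroblast growth factor receptors Fgfr1 2.51-fold higher (0.82 ± 0.04, SE; adjusted p = 2.66e-10) and Fgfr2 2.12-fold higher, Ddr1, a collagen receptor, 1.58-fold higher and Fgfr3 1.43-fold lower.

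The other lists had no more higher than lower calls in 66708. Of 21 tested genes of the cascade, 3 were higher, 4 lower and 14 did not pass, against 2 higher and 7 lower after quantile normalization and 1 higher and 9 lower on log2(CPM + 1). Over all genes tested, 3333 were higher and 2846 lower on the deposited scale. These counts were 2827 and 2989 after quantile normalization and 2197 and 4036 on log2(CPM + 1). Braf was 1.36-fold lower (-0.33; limma, adjusted p = 1.19e-06), Map2k1 1.25-fold, Gab2 1.58-fold and Mknk1 1.37-fold lower. Of 17 further feedback genes, 3 were higher and 8 lower, with Dusp14 1.53-fold, Nf1, the neurofibromin gene, 1.44-fold, Cbl, a ubiquitin ligase for receptors, 1.30-fold and Errfi1, an inhibitor of the EGF receptor, 1.28-fold lower. Of 18 further output genes, 5 were higher and 5 lower. Atf3 was 2.93-fold lower (-0.62; limma, adjusted p = 1.23e-08), Egr1 1.51-fold and Lif 1.45-fold lower, and Plaur, the urokinase receptor, 1.28-fold higher.

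In 88943, of 18 further output genes 6 were higher and 9 lower, with a median difference of -0.13 against -0.01 over all genes. This median was -0.015 after quantile normalization and -0.066 on log2(CPM + 1), where the medians over all genes were -0.006 and 0.11. Plaur was 1.64-fold lower (-0.58; limma, adjusted p = 2.61e-10), Ier3 1.63-fold and Klf6 1.53-fold lower, while Egr2 was 4.40-fold higher, at 132 scaled reads against 30.0. Of 17 further feedback genes 6 were higher and 9 lower, with Dusp9 1.73-fold, Dusp10 1.66-fold and Errfi1 1.36-fold lower and Nf1 1.54-fold higher. The median of this list was -0.09, and 0.01 both after quantile normalization and on log2(CPM + 1). On log2(CPM + 1) it thus stayed below the median over all genes, 0.11. Of 10 Ets factors 3 were higher and 5 lower. Ets1 was 2.49-fold lower (-1.20 ± 0.05, SE; limma, adjusted p = 3.09e-13), Gabpa 1.43-fold and Etv6 1.21-fold lower, and Etv1 1.39-fold higher. The list's median of -0.08 was 0.04 on log2(CPM + 1), also below the 0.11 over all genes.

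Of the cascade genes in 88943, 7 of 21 were higher, 7 lower and 7 not called, and this split moved with the scaling, to 10 higher and 6 lower after quantile normalization and 11 higher and 5 lower on log2(CPM + 1). Among all genes tested, 65.7% were called after quantile normalization (48.6% of these calls higher) and 69.6% on log2(CPM + 1) (64.4% of these calls higher). Nras was 1.55-fold lower, whereas Mknk1 was 1.97-fold and Sos2 1.45-fold higher. Of 10 receptors 5 were higher and 3 lower, with Erbb3 3.27-fold, Ddr1 1.95-fold and Igf1r 1.22-fold higher and Fgfr2 1.38-fold lower. Of 6 tested ligands 2 were higher and 1 lower. Areg, an EGF receptor ligand, was 1.89-fold lower (-0.68 ± 0.03, SE; limma, adjusted p = 9.74e-12), Tgfa 1.24-fold higher and Fgf1 1.82-fold higher. The median of the ligands was -0.03 and turned to 0.08 on log2(CPM + 1), where the median over all genes was 0.11. Against backgrounds of 53.1% and 67.6% of genes called, these counts describe the lists and set none of them apart. With hairpin means as samples, 30.3% of all genes tested were called in 66708 (56.9% of these calls higher) and 43.5% in 88943 (46.8% of these calls higher). The counts of higher and lower genes in 66708 were then 3 and 4 for output, 2 and 7 for feedback, 1 and 4 for cascade, 3 and 1 for receptor and 2 and 0 for ligand genes. In 88943 they were 3 and 7 for output, 3 and 5 for feedback, 2 and 3 for Ets, 6 and 5 for cascade, 3 and 1 for receptor and 2 and 1 for ligand genes.

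**Figure D5:**
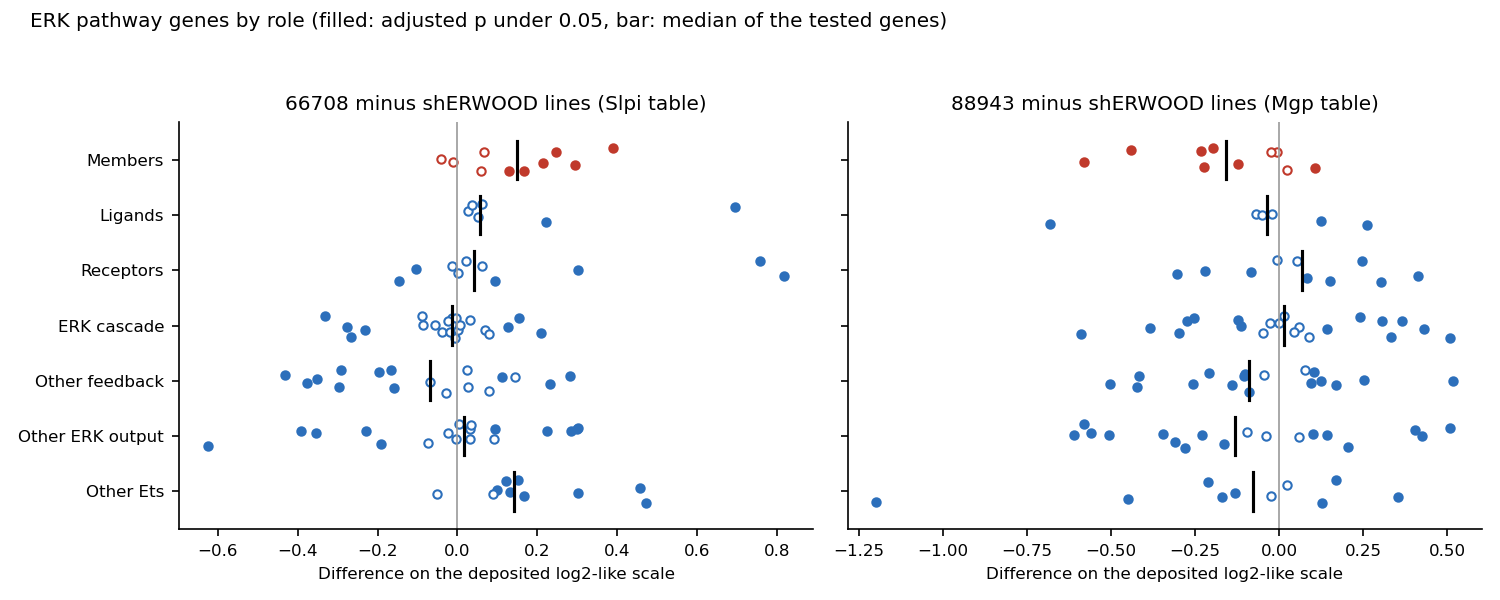
Difference of the TRC line from the shERWOOD mean on the deposited log2-like scale (horizontal axis, a separate range in each panel) for the tested genes of each list, with filled points for an adjusted p under 0.05 and a black bar at the list's median. In the Slpi panel the 10 genes (red) and the other Ets factors have medians of 0.15 and 0.14, and in the Mgp panel the 10 genes have a median of -0.16. The medians of the Ets, feedback and ligand lists there change sign on log2(CPM + 1), where the median over all genes is 0.11.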

How the data were processed

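RNA of 4T1 lines carrying 1 of 10 hairpins was sequenced from 100 ng of total RNA as 76 bp reads, per the labels' protocols. The authors' deposited values are variance-stabilized and on a log2-like scale, and the submitters' processing notes name mm10, Bowtie2, HTSeq and DESeq, without versions. For the counting annotation, strand setting and filters, the sources used here say nothing. The labels list 40 samples, 4 per hairpin. Only 20 columns, 2 for each hairpin, were deposited in the tables analysed, and no column name matches a single sample, so the columns served as replicates of their hairpin. They may be technical replicates, and p-values then measure no more than the spread between libraries.

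The transform was inverted with the smallest value of each table (7.92 and 8.12). All values came out as whole reads within 0.001 (100%), and scaled reads and CPM were computed from these. In each table limma 3.58.1 (R 4.3.3) with an intensity trend was fitted to the deposited values, in a means model over 5 hairpins, for genes that averaged 20 scaled reads or more. Tests were two-sided and Benjamini-Hochberg adjusted across the table. They compared the TRC hairpin with the mean of 4 shERWOOD hairpins, each of the 6 pairs of shERWOOD hairpins, and these 4 together by F. All adjusted p-values printed come from these fits or their alternatives. The procedure was tested on simulated data.

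The alternatives were voom on recovered reads, equal library medians, quantile normalization, no minimum, a minimum 1 unit above the smallest value, a replicate block, hairpin means as samples and leaving out each library. The scale log2(CPM + 1) was added after seeing the data. Named genes were all 10 genes and, from each further list, up to 4 called genes per table with the largest absolute difference, except where a gene is not reported here. The 10 genes and the lists were chosen with earlier results of these data known. Motifs were searched in 250 bases ahead of each start, and the likeness measure was Pearson's r over 10 line means.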

Additional observations from a re-analysis of the deposited data

Results flagged for a closer look

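In each table the 4 shERWOOD means of each gene were searched for 1 that stood apart from the other 3, by Dixon's ratio of its gap to the whole range. Of 20 such groups 3 passed the 95% limit, and chance gives about 1 in 20. In the Mgp table, Dusp5 had a ratio of 0.917, with Mgp1U3 at 41.7 scaled reads and the others at 48.7 to 49.3. The libraries overlapped, with 38.5 and 44.8 in Mgp1U3 and 60.1 and 37.9 in Mgp2. By F, Dusp5 did not differ over the 4 shERWOOD lines (F = 0.403; limma, adjusted p = 0.808). Spred1 had a ratio of 0.893, with Mgp1 at 2525 and the others at 2245 to 2275. Etv5 had a ratio of 0.834, with Mgp1U1 at 829 and the others at 695 to 718.

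For Dusp4 and Dusp6 both libraries of 66708 lay above all shERWOOD libraries of their table, and both libraries of 88943 lay below. The differences on the deposited scale were 0.25 and -0.12 for Dusp4 and 0.29 and -0.22 for Dusp6. The difference between the TRC lines was not tested, since the tables were normalized separately. By CPM, Dusp6 overlapped with the shERWOOD libraries in both tables, and Dusp4 did so in the Mgp table.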

How the results depend on the processing

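Leaving out each library in turn gave, in the Slpi table, 4228 to 6332 genes called (2369 to 3444 higher, 1859 to 2888 lower) and 4 to 6 of the 10 genes called higher, with the 1859 without the first library of 66708. In the Mgp table it gave 6480 to 8182 genes called (2979 to 3855 higher, 3500 to 4369 lower), with 0 to 1 of the 10 genes called higher (0 without the first library of 88943) and 5 to 6 lower. Calls of the F test over shERWOOD lines ranged from 398 to 1400 genes in the Slpi table, 404 and 458 without 1 library of Slpi2, 398 and 416 without 1 of Slpi4 and 1400 without the second of Slpi1U1. In the Mgp table they ranged from 1603 to 4824, with 1603 and 1664 without 1 library of Mgp1, 1847 and 1697 without 1 of Mgp1U1, 1847 without the second of Mgp1U3 and 4824 without the second of Mgp2. Of the 10 genes, 1 to 2 were called by F in the Slpi table (1 without the first library of Slpi1U2, the first of Slpi2 or either of Slpi4) and 1 to 3 in the Mgp table (1 without the second of Mgp1 or either of Mgp1U1). Pair calls ranged from 4 to 7 (4 without the first of Slpi2) and from 2 to 9 (2 without 1 library of Mgp1 or Mgp1U1, 8 and 9 without 1 of Mgp2). The difference of Fosl1 in the Slpi table ranged from -0.047 to 0.023, and that of Etv4 in the Mgp table from -0.019 to 0.0086, and neither was called.

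With hairpin means as samples, where the spread comes from the 4 shERWOOD means and the TRC line is assumed to vary like them, the Slpi table had 3521 genes called (2002 higher, 1519 lower) and 3 of the 10 genes higher (Dusp4, Spry4 and Etv5). The Mgp table had 5049 (2364 higher, 2685 lower), with 0 of the 10 higher and 4 lower (Dusp1, Dusp5, Spry2 and Fosl1). On log2(CPM + 1), 2197 genes were higher in the Slpi table, and 2 of the 10 genes and 5196 of all genes tested were higher in the Mgp table. After quantile normalization, 2 of the 10 genes and 3706 of all genes tested were higher in the Mgp table. On log2(CPM + 1), 3 differences without a call turned, Spred1 in the Slpi table to -0.020 and Spry4 and Etv4 in the Mgp table to 0.081 and 0.12. The cause was not tested. Without a minimum level, which adds genes with few reads to the adjustment, F called 272 genes, 1 of the 10 and 2 pair tests in the Slpi table, and 1483 genes in the Mgp table. Same-numbered libraries deviated from their line means with correlations of -0.47 to 0.48 in the Slpi table and -0.14 to 0.25 in the Mgp table, so the numbers were not taken as pairs. With a replicate block on these numbers 6079 and 7934 genes were called, and the pair calls of the 10 genes in the Mgp table were 8. Of 358 differences of the 10 genes under all alternatives, 328 kept their direction and call. This tally counts a difference that stayed without a call as kept, and settings that leave out 1 library share most of their data. Calls of Dusp6, Spry2 and Etv4 in the Slpi table were lost under at least 1 alternative. In the Mgp table those of Dusp4, Dusp6 and Etv5 were. Genes with few reads, such as Dusp5, are limited most by depth.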
